A study of Mus musculus with 49 samples.

Results

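Ccr7, S1pr1, Klf2, Klf3, Foxo1, Foxp1, Lef1, Satb1 and Tob1 are 9 genes that help keep a T cell resting and direct it to and from lymph nodes, and they were followed in splenic CD8+ T cells cultured in IL-2. The 9 were picked by symbol from the 23992 gene symbols of the deposited expression tables, with the longest transcript taken for each symbol. The cells came from 2 mouse lines made by CRISPR editing, a Stat5a line carrying Y694F and a Stat5b line carrying Y699F, each of which replaces the tyrosine that is phosphorylated when STAT5A or STAT5B is activated. In each line, knock-in (KI) mice were set against wild-type (WT) littermates, at 0 hr without IL-2 and after 4, 24 and 48 hr in recombinant human IL-2 at 500 IU/ml. This gave 16 groups of 3 libraries, named here by line, time, genotype and replicate number.

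Both mutations are in the germ line, so that the Stat5a KI and Stat5b KI cells carried them from before T cell development, and no cell type-specific promoter or Cre was used. The founders were B6D2F1 zygotes and the lines were backcrossed for 6 generations to C57BL/6J. Mice of both sexes, 8 to 24 weeks old, were used. CD8+ T cells were enriched by a negative-selection kit, which leaves naive and memory-phenotype cells together. No culture without IL-2 at 4, 24 or 48 hr was analysed here, so that an effect of IL-2 and one of time in culture cannot be told apart. Ccr7 and Tob1 lie on chromosome 11 with Stat5a and Stat5b, and for them linked sequence of the founders and the KI allele cannot be told apart.

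The sums of reads on the longest transcripts ranged from 17369112 to 60200653 over the 47 libraries used, with a median of 41410666. Replicate 3 of the Stat5a KI group at 4 hr held 1028515 such reads and was left out, so that this group has 2 libraries. Other libraries stood apart and were kept. Replicate 2 of the Stat5a-line WT group at 4 hr had the fewest reads of the libraries used, and only 44.86% of its mapped reads lay on these transcripts. Replicate 3 of the Stat5a-line WT group at 0 hr had the most reads, and the summed level of 8 B cell markers was 86.7 in it against 235.7 and 259.8 in its group mates. Tests that lose a call without these libraries are given with and without them.

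A naive CD8+ T cell circulates between blood, spleen and lymph nodes. The chemokine receptor CCR7 draws it into the lymph node, the sphingosine-1-phosphate receptor S1PR1 draws it out again, and the transcription factor KLF2 drives expression of S1pr1. Upstream of KLF2 stands FOXO1, a forkhead factor that is kept out of the nucleus once AKT phosphorylates it. FOXP1, KLF3, the TCF family factor LEF1, the chromatin organiser SATB1 and the antiproliferative protein TOB1 are further factors linked to the naive or resting state. IL-2 acts through JAK kinases and STAT5, and also feeds the PI3K and AKT pathway, in cells that are leaving that state.

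Promoter sequence was looked up for all 9 genes because most of them moved together, and 7 of the 9 had an entry (RefSeq, build GRCm38.p6), with 16 start sites between them. Ccr7 and S1pr1 had none. In the 250 bases upstream of each start, 3 motifs were searched on both strands. The palindromic STAT site TTCNNNGAA was found in 0 of the 16 windows, against 7.02% of the 32851 windows of all genes. The FOXO motif GTAAACA, or TGTTTAC on the other strand, was also found in 0 of 16, against 3.17% of all windows. The KLF-type GC-rich motif CCNCNCCC, or GGGNGNGG on the other strand, was present in 14 of the 16 windows, against 45.9% of all windows. It was found in at least 1 window of all 7 genes, for which no share over all genes was worked out. Plain runs of C or G also match it, as in Lef1, and windows of like base content were not compared. A pair of Lef1 windows and a pair of Satb1 windows share bases, so that the 16 make up 14 separate stretches, 12 of them with this motif. A match is a run of letters and not a measured site, and an absence concerns this window alone. The upstream windows of 4 genes that fell after IL-2, 2 of them KLF genes themselves, are printed with the KLF-type motif in capitals, where overlapping matches run together.
Foxo1, chr3:52268087-52268336, plus strand: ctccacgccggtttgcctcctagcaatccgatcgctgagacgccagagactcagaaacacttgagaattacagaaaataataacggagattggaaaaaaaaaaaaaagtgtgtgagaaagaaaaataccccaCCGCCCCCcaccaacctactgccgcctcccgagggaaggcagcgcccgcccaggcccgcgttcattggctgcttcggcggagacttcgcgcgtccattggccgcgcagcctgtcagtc
Klf2, chr8:72318812-72319061, plus strand: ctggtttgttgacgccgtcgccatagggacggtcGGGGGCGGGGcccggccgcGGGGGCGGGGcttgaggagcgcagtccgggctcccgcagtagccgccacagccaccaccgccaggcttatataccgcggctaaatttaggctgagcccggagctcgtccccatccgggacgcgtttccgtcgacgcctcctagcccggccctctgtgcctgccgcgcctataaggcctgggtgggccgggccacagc
Klf3, chr5:64803271-64803520, plus strand: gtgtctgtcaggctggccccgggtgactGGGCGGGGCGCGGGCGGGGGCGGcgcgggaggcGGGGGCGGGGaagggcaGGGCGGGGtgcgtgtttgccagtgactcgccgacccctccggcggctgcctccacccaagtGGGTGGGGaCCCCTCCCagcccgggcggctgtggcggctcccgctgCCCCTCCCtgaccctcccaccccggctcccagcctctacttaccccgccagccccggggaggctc
Tob1, chr11:94211204-94211453, plus strand: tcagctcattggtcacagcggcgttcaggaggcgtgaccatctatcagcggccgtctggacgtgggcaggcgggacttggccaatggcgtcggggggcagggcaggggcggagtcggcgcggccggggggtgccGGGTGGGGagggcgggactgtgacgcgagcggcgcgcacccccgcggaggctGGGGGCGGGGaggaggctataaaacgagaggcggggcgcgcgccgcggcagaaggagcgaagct
The Foxo1 window had a single stretch in capitals, whereas the Klf3 window had several along its length. The Tob1 window belongs to a start inside the annotated gene (11:94209842-94215495), while those of Foxo1, Klf2 and Klf3 end just before the gene start.

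Levels are given on the RPKM scale, that is reads per kilobase of transcript and library size, with library sizes adjusted by the TMM method, so that they can be compared between genes. A gene was called changed where the edgeR quasi-likelihood test, corrected by Benjamini and Hochberg over the 15566 genes tested, gave an adjusted p up to 0.05 and the levels differed by a factor of 2 or more, which are the thresholds used in the study. All 9 genes passed the filter on low counts. At 0 hr in WT cells of the Stat5b line, Klf2 (mean 529) and Ccr7 (mean 508) were the most abundant of the 9 per length, followed by S1pr1 (mean 214), and Tob1 (mean 45.9) was the lowest. These are levels of a bulk RNA sample, in which fewer cells of a type and less RNA per cell cannot be told apart.

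All 9 genes fell in WT cells of both lines over 48 hr of IL-2. By adjusted p alone 9 of 9 were lower at 48 hr than at 0 hr in each line. Of all 15566 genes, 11164 in the Stat5a and 10877 in the Stat5b line passed it in either direction. With the fold threshold Ccr7, S1pr1, Klf2, Klf3, Foxo1 and Tob1 were called in each line. These 6 of 9 stand beside 22.3% of all genes called lower in WT cells of the Stat5a line and 20.7% in those of the Stat5b line. None of the 9 was called higher, against 14.3% and 14.6% of all genes. The median log2 change of the 9 was -1.53 and -1.59, where the median of all genes was -0.12 and -0.13. In both lines the largest falls of the 9 were those of Tob1, Klf2 and Ccr7, and the smallest those of Satb1, Lef1 and Foxp1. Markers of other cell types were also lower in these WT samples at 48 hr, with 8 of 8 B cell (medians -2.72 and -2.97), 8 of 8 myeloid (-3.72 and -4.66) and 6 of 6 erythroid markers (-5.01 and -3.72) called lower in each line, and their part in the members' fall was not tested.

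The fall was not simultaneous. At 4 hr Ccr7, Foxo1 and Tob1 were called lower in the Stat5a line (3 of 9, against 11.4% of all genes) and Foxo1 and Tob1 in the Stat5b line (2 of 9, against 9.89%). Klf3 moved the other way. It was called higher at 4 hr in the Stat5a line, by 1.42 ± 0.16 on the log2 scale (SE), against 10.0% of all genes, and rose by 0.81 ± 0.16 without reaching the fold threshold in the Stat5b line, where 5.83% of all genes and none of the 9 were called higher. The call in the Stat5a line rested on replicate 2 at 4 hr, and without that library the rise was 0.93 on the log2 scale (adjusted p = 3.78e-10) and not called. Satb1 also rose at 4 hr in both lines, by 0.28 ± 0.08 and 0.38 ± 0.08. Lef1 (0.48 ± 0.12) and S1pr1 (0.30 ± 0.13) passed the adjusted p at 4 hr in the Stat5a line, where Lef1 was at 0.21 and did not pass without replicate 2 (adjusted p = 0.0535), and neither passed in the Stat5b line. At 24 hr Klf2 had joined Ccr7, Foxo1 and Tob1, so that 4 of 9 were called lower in each line, beside 14.2% and 13.5% of all genes. S1pr1 and Klf3 were called lower at 48 hr and not at 4 or 24 hr. The comparisons of the 3 times share the 0 hr libraries.

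**Figure D1:**
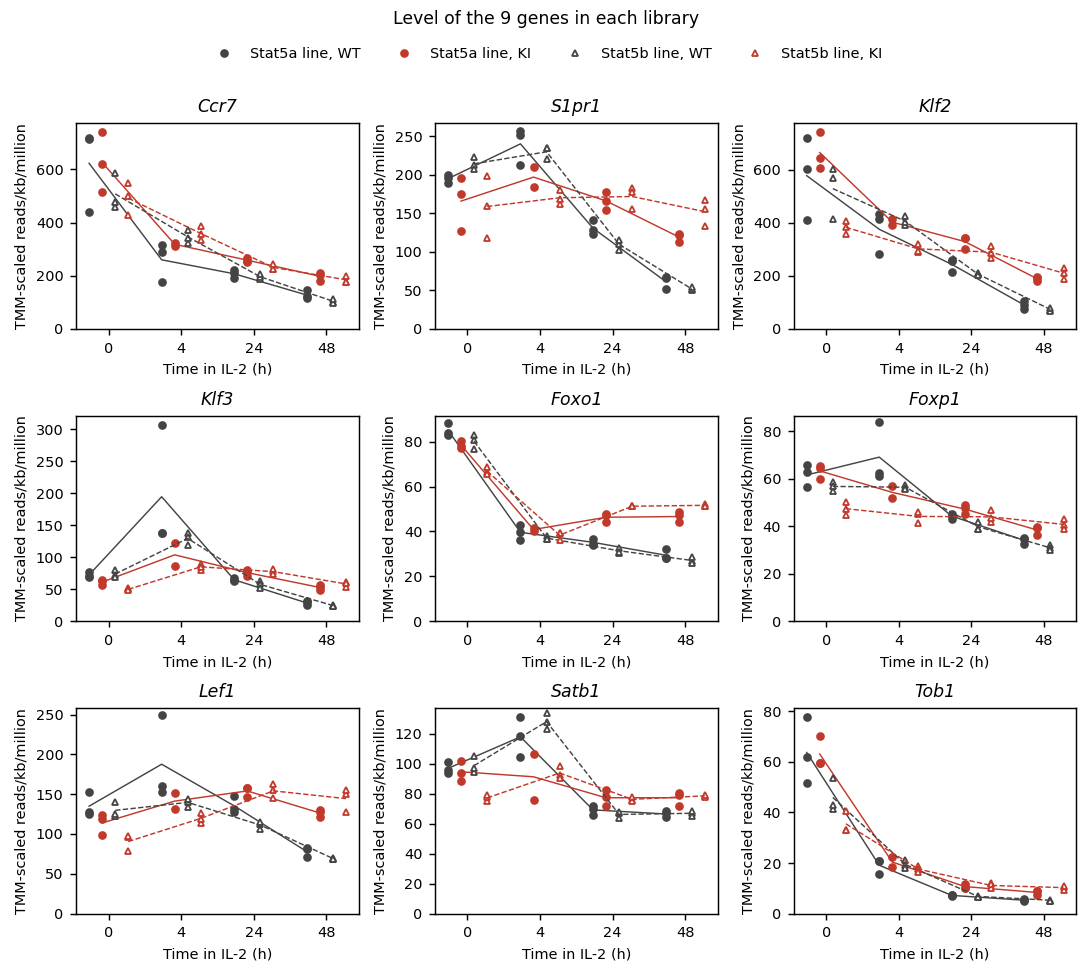
Levels of the 9 genes (TMM-scaled RPKM, linear axes from 0) at 0, 4, 24 and 48 hr in IL-2, drawn evenly spaced, with a point for each library and a line through the group means (circles and solid lines, Stat5a line; triangles and dashed lines, Stat5b line; grey, WT; red, KI). At 48 hr the KI points of every gene lie above the WT points of the same line, and for 8 genes the lowest group mean is that of Stat5b-line WT cells at 48 hr.

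Of the 2 homing receptors, Ccr7 had the higher level per length. In WT cells of the Stat5a line it stood at 712.7, 717.7 and 439.1 at 0 hr, the last value coming from the library with few B cell markers, and at 144.8, 115.1 and 122.97 at 48 hr. Stat5a KI cells went from 514.4, 622.1 and 741.5 to 182.2, 209.6 and 202.8. In the Stat5b line the 48 hr values were 101.2, 98.9 and 113.9 in WT cells and 198.9, 178.4 and 177.4 in KI cells, from 0 hr values of 460.0, 476.5 and 588.2 in WT and 500.6, 427.8 and 547.7 in KI. The KI and WT libraries overlapped at 0 hr in both lines, and at 48 hr they were apart. The KI minus WT difference at 48 hr was 0.64 ± 0.15 on the log2 scale in the Stat5a line (adjusted p = 0.000788) and 0.82 ± 0.15 in the Stat5b line (adjusted p = 1.51e-05). Ccr7 still fell in KI cells, by 1.66 ± 0.15 and 1.41 ± 0.15 on the log2 scale.

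S1pr1, the egress receptor, had the largest KI excess of the 9 in the Stat5b line at 48 hr. After 48 hr, WT cells held 66.2, 51.4 and 67.2 in the Stat5a and 49.9, 51.9 and 54.1 in the Stat5b line. KI cells held 113.1, 122.5 and 122.4 in the Stat5a and 155.7, 133.8 and 166.8 in the Stat5b line. The KI excess at 48 hr was 0.95 ± 0.13 on the log2 scale in the Stat5a line (adjusted p = 1.68e-07) and 1.55 ± 0.13 in the Stat5b line (adjusted p = 8.94e-13), the latter called. The 0 hr values were 195.4, 189.7 and 199.0 in WT and 126.4, 175.4 and 195.4 in KI cells of the Stat5a line, and 212.9, 206.9 and 222.5 in WT and 160.0, 117.7 and 198.4 in KI cells of the Stat5b line. Over 48 hr S1pr1 therefore stood at 31.6% ± 4.55 (SD, n = 3) of its 0 hr mean in WT and 72.0% ± 3.25 in KI cells of the Stat5a line. The corresponding shares for the Stat5b line were 24.3% ± 0.976 in WT and 95.8% ± 10.6 in KI cells, where the change from 0 hr was -0.06 ± 0.13 on the log2 scale and did not pass the test.

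Klf2 was among the 2 most abundant of the 9 genes at 0 hr and was called higher in KI than in WT cells at 48 hr in both lines. Its 48 hr levels were 103.7, 76.6 and 89.7 in WT and 179.9, 194.4 and 191.2 in KI cells of the Stat5a line. Those of the Stat5b line were 72.7, 68.7 and 78.6 in WT and 229.5, 188.4 and 212.6 in KI cells. The KI values lay clear of the WT values in each line. The KI minus WT difference was 1.07 ± 0.15 on the log2 scale in the Stat5a line (adjusted p = 2.16e-07, not called without WT or KI replicate 2 at 48 hr). It was 1.52 ± 0.15 in the Stat5b line (adjusted p = 3.07e-11). At 0 hr the levels were 602.2, 719.6 and 410.6 in WT and 607.4, 645.1 and 741.1 in KI cells of the Stat5a line, and 415.9, 567.4 and 602.7 in WT and 382.9, 358.6 and 407.0 in KI cells of the Stat5b line. In the Stat5b line, then, Klf2 was lower in KI cells at the start (by 0.47 ± 0.14 on the log2 scale) and higher at the end. Klf2 fell to 13.9% ± 0.941 of its 0 hr mean in Stat5b-line WT cells and to 54.9% ± 5.39 in Stat5b KI cells.

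Klf3, which encodes a repressor of the same zinc finger family and is known as a target of KLF1 in red cells, peaked at 4 hr. Its WT values at 4 hr were 138.6, 307.4 and 138.01 in the Stat5a and 137.5, 131.1 and 119.9 in the Stat5b line, and its KI values were 85.9 and 121.8 in the Stat5a and 90.1, 80.4 and 84.8 in the Stat5b line. At 4 hr Klf3 was lower in KI cells, by 0.90 ± 0.18 on the log2 scale in the Stat5a and by 0.61 ± 0.16 in the Stat5b line. Stat5b KI cells already had less of it at 0 hr (-0.57 ± 0.16), and the rise to 4 hr was 0.81 in WT and 0.77 in KI cells of that line, a difference of -0.04 ± 0.23 (adjusted p = 0.995). For the Stat5a line the rises differed by -0.66 ± 0.24, which did not pass (adjusted p = 0.124). In the Stat5a line the difference at 4 hr shrank to -0.41 without replicate 2 of the WT group (adjusted p = 0.0122). By 48 hr the order had turned, with 31.1, 25.0 and 29.7 in WT and 48.2, 56.5 and 53.6 in KI cells of the Stat5a line, and 24.8, 24.4 and 24.6 in WT and 61.9, 53.6 and 59.6 in KI cells of the Stat5b line. The difference at 48 hr was 0.89 ± 0.16 in the Stat5a line (adjusted p = 3.00e-05) and 1.25 ± 0.16 in the Stat5b line (adjusted p = 3.11e-08, called). From 0 hr to 48 hr Klf3 fell in WT cells to 39.4% ± 4.44 and 33.3% ± 0.269 of the 0 hr mean, while in KI cells it stood at 86.3% ± 6.89 in the Stat5a and 117.01% ± 8.52 in the Stat5b line, neither passing the test of a change.

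Foxo1, the forkhead factor at the head of this programme, had the smallest standard errors of the 9. Its WT levels dropped within 4 hr from 88.5, 83.9 and 82.9 to 39.6, 42.8 and 36.4 in the Stat5a line and from 83.0, 76.8 and 80.7 to 38.1, 36.5 and 36.5 in the Stat5b line. KI cells began at 77.1, 78.2 and 80.2 in the Stat5a and at 66.4, 65.4 and 68.8 in the Stat5b line, lower than WT in the latter (-0.26 ± 0.06, adjusted p = 0.000957). At 4 hr KI cells had levels of 40.2 and 41.5 in the Stat5a and 39.3, 39.5 and 36.2 in the Stat5b line, and the differences of 0.05 ± 0.06 in each line did not pass the test. In Stat5b KI cells the fall from 0 to 4 hr was smaller than that of WT cells by 0.31 ± 0.08 on the log2 scale (adjusted p = 0.0300), which did not pass without KI replicate 1 or 2 at 0 hr or WT replicate 2 or 3 at 4 hr (adjusted p up to 0.0919). At 24 hr Foxo1 was at 36.8, 34.1 and 34.6 in WT and 44.0, 47.4 and 47.6 in KI cells of the Stat5a line, and at 32.8, 30.5 and 30.8 in WT and 51.2, 51.3 and 51.2 in KI cells of the Stat5b line. At 48 hr WT cells had gone down further, to 32.1, 28.2 and 28.0 and to 26.8, 26.0 and 28.4, whereas KI cells held 44.1, 48.6 and 47.2 in the Stat5a and 52.4, 51.4 and 51.1 in the Stat5b line. The KI excess at 48 hr was 0.66 ± 0.06 (adjusted p = 2.88e-11) and 0.93 ± 0.06 (adjusted p = 4.72e-16) on the log2 scale, under the fold threshold in both lines.

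Foxp1, a forkhead factor known to hold naive T cells in quiescence, moved less. In WT cells it went from 65.7, 62.9 and 56.5 at 0 hr to 35.1, 32.7 and 34.5 at 48 hr in the Stat5a line and from 58.6, 54.9 and 57.1 to 32.1, 30.7 and 29.9 in the Stat5b line. The 48 hr KI levels were 36.3, 39.2 and 39.8 in the Stat5a and 40.6, 39.0 and 43.0 in the Stat5b line. The KI excess of 0.40 ± 0.08 in the Stat5b line passed the test (adjusted p = 3.14e-05), and that of 0.17 ± 0.08 in the Stat5a line did not (adjusted p = 0.0705). It was the only member that did not pass there.

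Lef1, which works with TCF1 (encoded by Tcf7) in naive T cells, and Satb1 had the smallest falls with Foxp1. Lef1 in WT cells stood at 124.5, 152.4 and 127.9 at 0 hr and 80.5, 70.6 and 82.6 at 48 hr in the Stat5a line, and at 123.2, 125.2 and 140.7 and then 68.5, 70.2 and 69.0 in the Stat5b line. In KI cells it went from values between 99.2 and 123.5 to 121.8, 130.4 and 127.1 in the Stat5a line, and from 95.6, 78.9 and 97.0 to 150.6, 127.7 and 155.1 in the Stat5b line. Lef1 thus rose in Stat5b KI cells, by 0.67 on the log2 scale, to 159.6% ± 16.2 of its 0 hr mean, and no other member passed the adjusted p for a rise from 0 to 48 hr in any group. The KI excess at 48 hr was 0.70 ± 0.12 in the Stat5a line (adjusted p = 6.98e-06) and 1.06 ± 0.12 in the Stat5b line (adjusted p = 7.07e-10, called, but at 0.96 and not called without KI replicate 3 at 48 hr).

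For Satb1 the 48 hr levels were 68.2, 66.8 and 64.5 in WT and 71.9, 80.8 and 79.4 in KI cells of the Stat5a line, and 67.1, 65.0 and 68.8 in WT and 78.7, 77.7 and 79.4 in KI cells of the Stat5b line. The KI libraries were above the WT libraries, but by little, with differences of 0.22 ± 0.08 (adjusted p = 0.0261) and 0.23 ± 0.08 (adjusted p = 0.0124). Satb1 no longer passed in the Stat5a line without any 1 of the libraries of that time other than WT replicate 1 (adjusted p = 0.0561 to 0.277), nor in the Stat5b line without any other than KI replicate 1 (adjusted p = 0.0590 to 0.128). The gene stood at 101.8% ± 1.12 of its 0 hr mean in Stat5b KI cells and at 67.8% ± 1.89 in their WT littermates.

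Tob1, whose product joins the CCR4-NOT complex that shortens mRNA tails, fell the most. Its WT levels were 62.0, 77.8 and 51.5 at 0 hr and 5.06, 5.18 and 5.57 at 48 hr in the Stat5a line, and 53.7, 41.2 and 42.9 at 0 hr and 5.54, 5.11 and 5.14 at 48 hr in the Stat5b line. The KI values at 48 hr were 7.42, 8.73 and 8.84 in the Stat5a and 10.7, 9.29 and 10.8 in the Stat5b line. Every KI value exceeded every WT value of the same line, by 0.66 ± 0.13 (adjusted p = 4.70e-05) and 0.96 ± 0.13 (adjusted p = 2.71e-08) on the log2 scale. Even so, Tob1 was called lower at 48 hr than at 0 hr in KI cells of both lines, with 13.2% ± 1.25 and 28.9% ± 2.34 of the 0 hr mean left, where WT cells had 8.27% ± 0.413 and 11.5% ± 0.523.

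**Figure D2:**
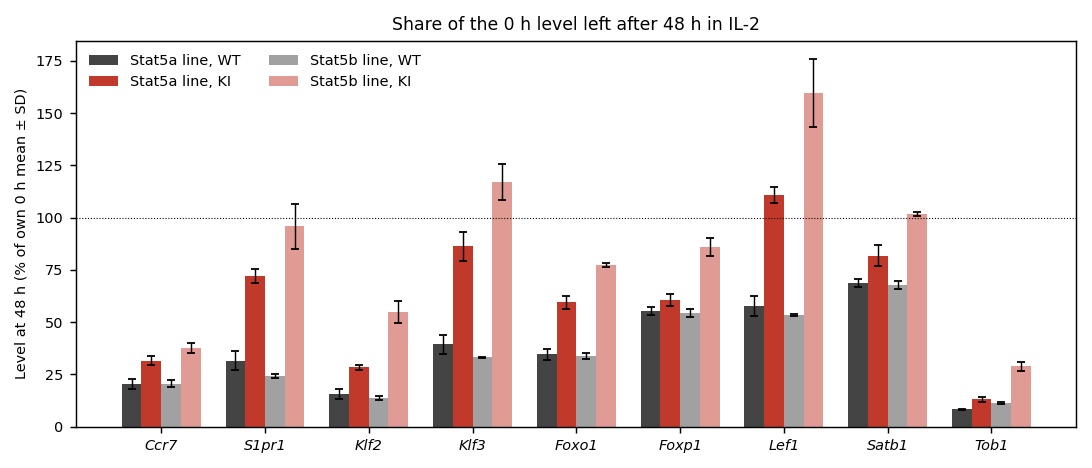
Level at 48 hr as a percentage of the group's own 0 hr mean for each gene, as bars (mean of 3 libraries) with SD, in WT and KI cells of each line, with a dotted line at the 0 hr level. The KI bar is higher than the WT bar of its line for all 9 genes, and for Klf3, Lef1 and Satb1 the Stat5b KI bar lies above the dotted line.

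Before IL-2 members were lower in Stat5b KI cells than in their WT littermates. In the Stat5a line at 0 hr, 0 of the 9 genes passed the adjusted p by edgeR (2 had an unadjusted p under 0.05) or by DESeq2 (0 had an unadjusted p under 0.05), beside 3.44% of all genes that passed in either direction. In the Stat5b line 8 of the 9 were lower in KI cells by adjusted p, all except Ccr7, against 9.26% of all genes. The differences ranged from -0.57 ± 0.16 on the log2 scale for Klf3 to -0.26 ± 0.08 for Foxp1, with Foxo1 at -0.26 ± 0.06, Lef1 at -0.52 and S1pr1 at -0.43, and none reached the fold threshold, where 0.604% of all genes were called lower in KI cells. The test of the difference between the lines at 0 hr passed the adjusted p for 0 of the 9 by edgeR and by DESeq2 (4 had an unadjusted p under 0.05 by either tool), against 0.193% of all genes by edgeR, with Klf2 the lowest (adjusted p = 0.143). CD8+ T cell markers were lower in the same libraries, with 6 of 6 lower by adjusted p and a median of -0.35, while 8 of 8 B cell, 7 of 8 myeloid and 6 of 6 erythroid markers were called higher, against 7.38% of all genes. Of the division markers 4 of 6 were called higher, with a median of 1.19, and of the memory-phenotype markers 4 of 9 were lower by adjusted p, with a median of -0.60. Whether the makeup of the samples had a part in the members' difference was not tested.

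At 4 hr some members were lower in KI cells of both lines. By adjusted p, 5 of 9 were lower in Stat5b KI cells (Klf2, Klf3, S1pr1, Foxp1 and Satb1), against 12.8% of all genes, and 4 of 9 in Stat5a KI cells (Klf3, Foxp1, Lef1 and Satb1), against 12.7%. In the Stat5a line this rested partly on replicate 2 of the WT group, without which Klf3 and Satb1 (-0.29, adjusted p = 0.0317) passed and Foxp1 (-0.18, adjusted p = 0.0762) and Lef1 (-0.15, adjusted p = 0.369) did not. In Stat5b KI samples 8 of 8 B cell, 7 of 8 myeloid and 6 of 6 erythroid markers were called higher. By adjusted p 3 of 6 CD8+ T cell markers were lower there, and of 9 memory-phenotype markers 5 were lower and 2 higher. In Stat5a KI samples 4 of 8 B cell, 4 of 8 myeloid and 0 of 6 erythroid markers were called higher. The part of these markers in the members' difference was not tested.

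At 24 hr the members that passed the test were higher in KI cells. By adjusted p, Foxo1 (0.40 ± 0.06), Klf2 (0.44 ± 0.14) and Tob1 (0.57 ± 0.12) were higher in Stat5a KI cells than in WT, which is 3 of 9 against 9.49% of all genes. Among Stat5b KI cells 7 of 9 were higher, against 24.1% of all genes, and these were Foxo1 (0.71 ± 0.06), Tob1 (0.71 ± 0.12), S1pr1 (0.65 ± 0.13), Klf2 (0.49 ± 0.14), Lef1 (0.47 ± 0.12), Klf3 (0.43 ± 0.16) and Satb1 (0.20 ± 0.08). Ccr7 (0.24 ± 0.15) and Foxp1 (0.14 ± 0.08) did not pass. None was called with the fold threshold. Of the 15566 genes tested, 499 in the Stat5a and 1698 in the Stat5b line were called higher in KI cells at 24 hr. The division markers moved the other way between these times. In Stat5b KI against WT cells 4 of 6 were called higher at 4 hr (median 1.29) and 6 of 6 lower at 24 hr (median -1.53, against 5.77% of all genes). In the Stat5a line 2 of 6 were higher by adjusted p at 4 hr and 6 of 6 lower at 24 hr, where 9.01% of all genes were lower by adjusted p, and their part in the members' difference was not tested.

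At 48 hr 8 of 9 were higher in Stat5a KI cells by adjusted p, against 21.5% of all genes, and 9 of 9 in Stat5b KI cells, against 33.1%. With the fold threshold Klf2 alone was called in the Stat5a line (1 of 9, against 6.35% of all genes). S1pr1, Klf2, Klf3 and Lef1 were called in the Stat5b line (4 of 9, against 16.5%), where leaving out KI replicate 3 ended the call of Lef1. With upper-quartile scaling 2 and 7 of the 9 were called higher, and the median of all genes in the Stat5b comparison moved from 0.10 to 0.31. None was called lower, where 2.43% and 9.81% of all genes were. The single call of the Stat5a line was within reach of the fold threshold, and leaving out replicate 2 of the WT or of the KI group ended it, with a range of 0.92 to 1.18 on the log2 scale for Klf2. All 3 KI libraries lay above all 3 WT libraries for 9 of 9 genes in each line, an arrangement that held for 30.2% of all genes in the Stat5a and 40.4% in the Stat5b line. The median KI minus WT difference of the 9 was 0.66 and 0.96 on the log2 scale, beside 0.04 and 0.10 for all genes.

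**Figure D3:**
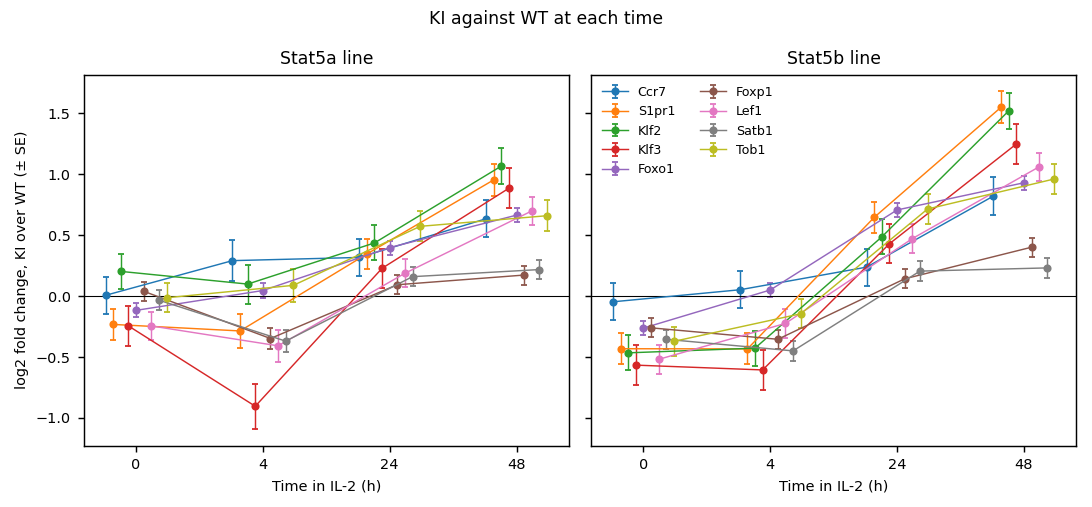
KI minus WT difference of each gene (log2 fold change with SE) at 0, 4, 24 and 48 hr, for the Stat5a line and the Stat5b line. All 9 genes of the Stat5b line start below 0 at 0 hr and end above it at 48 hr, from 0.23 for Satb1 to 1.55 for S1pr1.

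The change in the IL-2 response itself was tested as an interaction of genotype with time against 0 hr, in which the differences at 0 hr are subtracted. By 4 hr 0 of 9 passed the adjusted p in the Stat5a line by edgeR (3 had an unadjusted p under 0.05, and 2 passed by DESeq2, Foxp1 and Satb1), against 1.54% of all genes, and Foxo1 passed in the Stat5b line (1 of 9, against 1.99%). By 24 hr Foxo1 (0.52 ± 0.08) and Tob1 (0.59 ± 0.17) had a higher response in Stat5a KI cells than in WT by adjusted p (2 of 9, against 1.81% of all genes). In the Stat5b line 8 of 9 did, all except Ccr7, against 14.2% of all genes. With the fold threshold these were S1pr1 and Tob1 (2 of 9, against 3.51%). By 48 hr 7 of 9 passed the adjusted p in the Stat5a line (against 11.8% of all genes) and 9 of 9 in the Stat5b line (against 23.8%). Klf3 (1.13 ± 0.23) and S1pr1 (1.19 ± 0.18) were called in the Stat5a line (2 of 9, against 3.16%), and without replicate 3 of the WT group at 0 hr Klf2 was called as well, at 1.03 on the log2 scale. Ccr7 (0.63 ± 0.21, adjusted p = 0.0252) no longer passed in the Stat5a line without WT replicate 1 or 2 or KI replicate 1 at 0 hr, or without WT or KI replicate 2 or 3 at 48 hr, with adjusted p up to 0.0939. Among Stat5b-line cells Klf2 (1.99 ± 0.21), S1pr1 (1.98 ± 0.18), Klf3 (1.81 ± 0.23), Lef1 (1.58 ± 0.17), Tob1 (1.33 ± 0.17) and Foxo1 (1.19 ± 0.08) were called, 6 of 9 against 10.3% of all genes. At 48 hr 7 of 8 B cell (median 1.66) and 7 of 8 myeloid markers (3.24) were called higher in that line. So were 2 of 3 CD4 T cell markers, while 6 of 6 division markers were called lower (median -2.695). In the Stat5a line 3 of 8 myeloid and 0 of 8 B cell markers were called higher, and 4 of 6 division markers lower. The part of these markers in the members' response was not tested. Within KI cells, 3 of 9 were called lower at 48 hr than at 0 hr in the Stat5a line (Ccr7, Klf2 and Tob1, against 16.7% of all genes) and 2 of 9 in the Stat5b line (Ccr7 and Tob1, against 13.2%).

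The difference between the lines was tested as well, as the KI minus WT difference of the Stat5b line less that of the Stat5a line. At 48 hr all 9 estimates were positive, and 2 of 9 passed the adjusted p, Foxo1 at 0.27 ± 0.08 (adjusted p = 0.0295) and S1pr1 at 0.60 ± 0.18 (adjusted p = 0.0264), beside 3.20% of all genes. At 24 hr Foxo1 passed, at 0.31 ± 0.08 on the log2 scale (1 of 9, against 2.76% of all genes). Klf2 (0.45 ± 0.20, adjusted p = 0.155), Lef1 (0.36 ± 0.16, adjusted p = 0.159), Klf3 (0.36 ± 0.23, adjusted p = 0.344) and the remaining genes did not pass the adjusted p at 48 hr. No member was called with the fold threshold. Of the 15566 genes tested, 216 at 24 hr and 241 at 48 hr were called higher in this test. Foxo1 and S1pr1 each lost the adjusted p at 48 hr when single libraries were left out, WT replicate 1 or KI replicate 1 of the Stat5a line or WT replicate 1, WT replicate 2, KI replicate 1 or KI replicate 3 of the Stat5b line, and for S1pr1 also WT replicate 3 of the Stat5a line, with adjusted p up to 0.146 for Foxo1 and 0.0973 for S1pr1.

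The levels of the targeted genes do not check the labels, since a single residue was changed. Stat5a stood at 29.8 ± 0.781 (SD, n = 3) in WT and 29.9 ± 2.87 in KI cells of the Stat5a line at 0 hr, and Stat5b at 42.8 ± 0.401 in WT and 37.9 ± 0.422 in KI cells of the Stat5b line at 0 hr. At 48 hr Stat5b stood at 27.6 ± 0.188 in WT and 38.2 ± 2.15 in KI cells of the Stat5b line.

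Other genes of the same functions were read from listed sets. Of 15 partners in homing and egress, 0 were called higher and 5 lower in Stat5a-line WT cells at 48 hr, and 0 and 6 in those of the Stat5b line, beside 22.3% and 20.7% of all genes called lower. The 3 largest falls were those of Cd69, Cxcr4 and S1pr5 in the Stat5a line (-3.45, -2.64 and -2.44) and of S1pr5, Ccr9 and Cd69 in the Stat5b line (-2.29, -2.27 and -2.22). Cd69, whose product binds S1PR1 and removes it from the surface, was thus among them in both lines. In KI against WT cells at 48 hr, 1 of the 15 was called higher in the Stat5a line (Ccr9, the gut-homing chemokine receptor, by 1.72 ± 0.14). In the Stat5b line 3 were called higher, Ccr9 (2.22 ± 0.14), Itga4 (1.67 ± 0.14) and Itgb7 (1.08 ± 0.16), which encode the chains of the gut-homing integrin α4β7, and Cd69 was called lower (by 1.24 ± 0.22). The shares of the list called higher were near those of all genes (6.35% and 16.5%).

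Of 24 further quiescence and naive-state genes, 17 were called lower and 0 higher at 48 hr in WT cells of each line, with medians of -1.21 and -1.39 on the log2 scale, where 22.3% and 20.7% of all genes were called lower. Klf4 and Btg1, both linked to restraint of T cell division, were among the 3 largest falls in each line (Klf4 -7.98 and -7.57, Btg1 -3.16 and -3.20). At 48 hr in KI against WT cells, 2 of the 24 were called higher in the Stat5a and 10 in the Stat5b line, none lower, beside 6.35% and 16.5% of all genes called higher, and by adjusted p alone 18 and 20 were higher. Those of the Stat5a line were Btg2 (1.13 ± 0.14) and Ripor2, listed as Fam65b (1.04 ± 0.10). The largest of the Stat5b line were Il7r, the receptor chain for IL-7 (2.05 ± 0.18), Btg2 (1.61 ± 0.14) and Btg1 (1.45 ± 0.10). Il7r stood at 35.1 ± 2.31 in WT and 145.8 ± 25.9 in KI cells there, and at 40.1 ± 10.1 and 70.7 ± 5.06 in the Stat5a line. Tcf7 stood at 187.2 ± 4.32 in WT and 441.9 ± 16.0 in KI cells of the Stat5b line, and at 218.1 ± 17.7 and 405.2 ± 27.2 in those of the Stat5a line, where its difference of 0.89 ± 0.07 passed the adjusted p and not the fold threshold.

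Among 11 genes of PI3K, AKT and the control of FOXO proteins, 2 were called lower in Stat5a-line WT cells at 48 hr (Pik3ip1 -1.18, Sgk1 -1.02) and 1 in those of the Stat5b line (Pik3ip1 -1.46). Pik3ip1, which encodes an inhibitor of PI3K, was also the only gene of the 11 called in KI against WT cells at 48 hr, in the Stat5b line at 1.64 ± 0.13. In the Stat5a line it was at 0.96 ± 0.13, and 0 of the 11 were called. The list as a whole had log2 medians of 0.06 for the Stat5a and -0.06 for the Stat5b line, beside 0.04 and 0.10 for all genes.

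**Figure D4:**
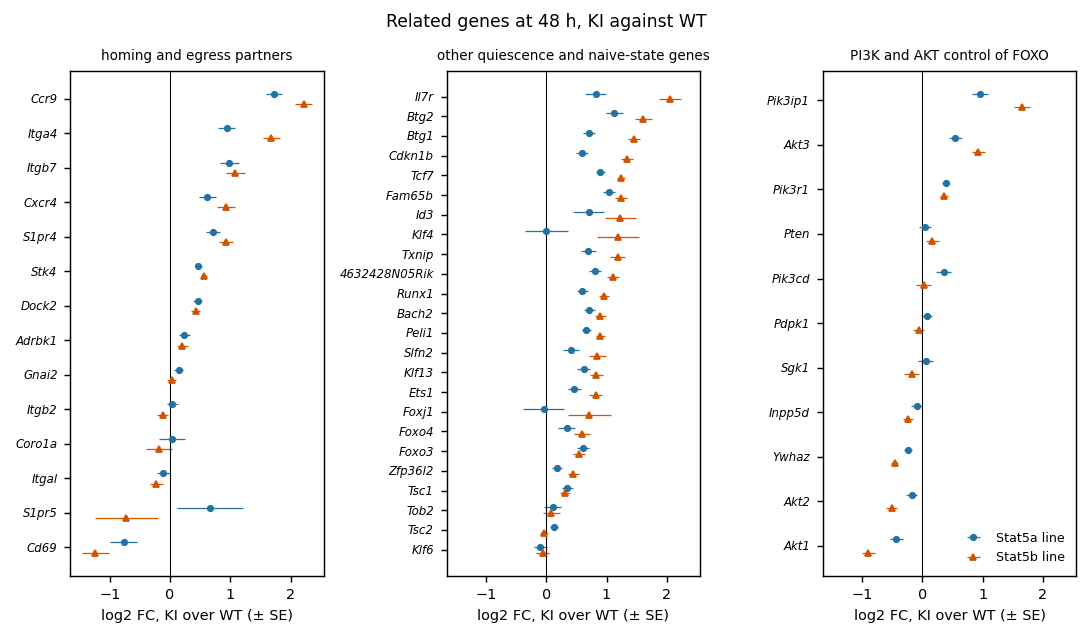
KI minus WT difference at 48 hr (log2 fold change with SE) for genes of the 3 lists, homing and egress partners, other quiescence and naive-state genes, and PI3K and AKT control of FOXO, in the Stat5a line (circles) and the Stat5b line (triangles), with a line at 0. Most quiescence genes lie to the right of 0 in both lines, while the PI3K and AKT genes lie on both sides with Pik3ip1 at the top (Grk2 is listed as Adrbk1, Vsir as 4632428N05Rik and Ripor2 as Fam65b).

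Genes of cell division moved the other way from the members at 48 hr, and markers of other cell types differed between the genotypes as well. The division markers Mki67, Top2a, Ccnb1, Cdk1, Pcna and Mcm5 were called higher in WT cells at 48 hr in 6 of 6 cases in each line. In KI against WT cells at 48 hr, 1 of 6 was called lower in the Stat5a line (Ccnb1 -1.14 ± 0.24) and 6 of 6 in the Stat5b line. Their summed level was 1126, 1198 and 1147 in WT and 764.1, 723.1 and 696.9 in KI cells of the Stat5a line, and 1253, 1236 and 1279 in WT and 451.1, 553.4 and 393.6 in KI cells of the Stat5b line. The KI cells that held more of the members' transcripts were thus those with less of the division transcripts, and the part of cell division in the members' difference was not tested.

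B cell markers were called higher in 8 of 8 cases at every time in Stat5b KI samples, and in 3 of 8 at 0 hr, 4 of 8 at 4 hr and 8 of 8 at 24 and 48 hr in Stat5a KI samples. At 48 hr their summed level was 53.3, 42.4 and 17.9 in WT and 142.7, 134.3 and 161.5 in KI samples of the Stat5a line, and 17.8, 15.2 and 17.9 in WT and 158.2, 157.5 and 169.9 in KI samples of the Stat5b line. On average over the 47 libraries the most abundant was Cd79a, at 3.70 ± 0.442 in WT and 55.1 ± 1.26 in KI samples of the Stat5b line at 48 hr, where Cd79b was the higher of the pair in WT samples (8.56, 7.06 and 8.45). At 0 hr the sums were 235.7, 259.8 and 86.7 in WT and 466.7, 393.2 and 437.4 in KI samples of the Stat5a line, and 88.9, 83.7 and 97.1 in WT and 326.0, 336.4 and 339.6 in KI samples of the Stat5b line. The sums of the KI samples thus lay above those of the WT samples at 0 hr as well.

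Myeloid markers were called higher at 48 hr in 6 of 8 cases in the Stat5a and 8 of 8 in the Stat5b line. Their summed level was 9.91, 7.60 and 4.08 in WT and 70.1, 28.3 and 27.1 in KI samples of the Stat5a line, and 4.30, 4.18 and 5.71 in WT and 105.2, 67.7 and 87.8 in KI samples of the Stat5b line, with Lyz2 the most abundant on average over all libraries and Cd68 by the mean of each WT group at 48 hr (3.11, 3.03 and 3.11 in the Stat5b line). Csf1r, C1qa and C1qb were at 0 in at least 1 WT library of the Stat5b line at 48 hr, and Cd14 in at least 1 WT library of each line. Erythroid markers were called in 0 of 6 cases in the Stat5a and 6 of 6 in the Stat5b line at 48 hr, with sums of 6.21, 7.34 and 10.6 in WT and 249.0, 136.2 and 213.5 in KI samples of the latter, Hbb-bs being the most abundant in the KI samples. In the Stat5a line the sums were 9.48 ± 1.05 (SD) in WT and 24.7 ± 2.55 in KI samples. The median log2 difference there was 1.41. CD4 T cell markers were called higher in 1 of 3 cases in the Stat5a line (Cd4) and 2 of 3 in the Stat5b line (Cd4 and Foxp3), with Cd4 at 0.906 ± 0.150 in WT and 10.2 ± 0.198 in KI samples of the Stat5b line. Of 4 NK cell markers, 0 were called in the Stat5a line, whereas for the Stat5b line Ncr1 (2.06 ± 0.35) and Klra8 (1.04 ± 0.36) were called higher and Klrb1c (-1.38 ± 0.21) lower.

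CD8+ T cell markers were high in every group. Cd8b1 was the most abundant of them on average, and their summed level at 48 hr was 1596, 1416 and 1430 in WT and 1882, 2162 and 2014 in KI samples of the Stat5a line, and 1383, 1379 and 1383 in WT and 2047, 1964 and 1912 in KI samples of the Stat5b line. By adjusted p 6 of 6 were higher in KI samples in each line, and none reached the fold threshold. Of 9 memory-phenotype markers, 1 was called lower in the Stat5a line (Eomes -1.35 ± 0.19), and in the Stat5b line 4 were called lower and 1 (Ccl5) higher, the largest being Il2rb at -1.55 ± 0.16, Ly6c2 at -1.30 and Tbx21 at -1.17, with Eomes at -1.01. Whether a different share of memory-phenotype, B or myeloid cells had a part in the members' difference was not tested.

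**Figure D5:**
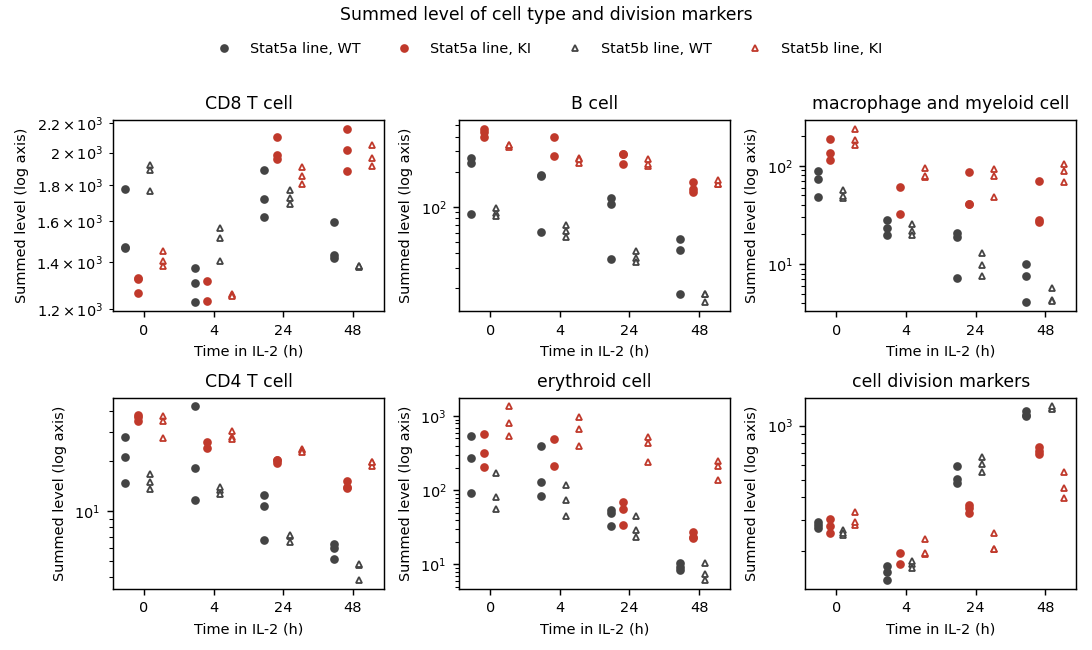
Summed level (TMM-scaled RPKM, log axes) of the CD8 T cell, B cell, myeloid, CD4 T cell, erythroid and division markers at 0, 4, 24 and 48 hr, with a point for each library (circles, Stat5a line; triangles, Stat5b line; grey, WT; red, KI). At 48 hr the B cell and myeloid sums of the KI libraries lie above those of the WT libraries in both lines, and the division sums below.

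Ordered by level, the 16 groups had the same lowest group for most members, while the highest group differed between members. The lowest group was Stat5b-line WT cells at 48 hr for 8 of the 9 genes, and for Satb1 it was the same cells at 24 hr. Klf2 was highest in Stat5a KI cells at 0 hr, Foxo1 and Tob1 in Stat5a-line WT cells at 0 hr, S1pr1, Klf3 and Lef1 in Stat5a-line WT cells at 4 hr, and Satb1 in WT cells of the Stat5b line at 4 hr. The highest group of Ccr7 was Stat5a KI cells at 0 hr and that of Foxp1 Stat5a-line WT cells at 4 hr, but without replicate 3 at 0 hr and replicate 2 at 4 hr of the Stat5a-line WT groups it was Stat5a-line WT cells at 0 hr for both, and for the other 7 genes it was as with all libraries. Neighbouring groups in this order overlapped in most cases, from 9 of 15 pairs for Tob1 to 14 of 15 for Satb1.

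Over the 16 group means on a log2 scale, which share cells, lines and times, the members were not all alike. The closest pairs were Ccr7 with Tob1 (Pearson r = 0.960) and Ccr7 with Klf2 (r = 0.935), and the least alike were Klf3 and Foxo1 (r = 0.201). Among all genes tested outside the 9, those whose pattern was most like a member's were Tsc22d3 (r = 0.991), Lrrc23 (0.983) and Map1lc3b (0.979) for Ccr7, and Daf2 (0.979), Dlgap4 (0.978) and Map4k2 (0.976) for S1pr1. For Klf2 they were Parp6 (0.982), Smad7 (0.979) and Cdo1 (0.976), and for Klf3 Dcaf6 (0.972), Rab2b (0.971) and 4833420G17Rik (0.966). For Foxo1 they were Chd3 (0.968), Rfx3 (0.964) and Nat14 (0.964), and for Foxp1 Tmem87b (0.964), Tecta (0.961) and Zfp715 (0.960). Lef1 was closest to Card6 (0.965) and Zfp354c (0.962), Satb1 to Otud3 (0.956), Unkl (0.951) and Itch (0.934), and Tob1 to Cdkn2aip (0.992), Mgea5 (0.990) and March7 (0.988).

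The members' genes lie apart in the genome, on 6 chromosomes (mm10). Ccr7 occupies 11:99144199-99155077 on the minus strand and Tob1 11:94209842-94215495 on the plus strand, while Stat5a lies at 11:100859351-100885169 and Stat5b at 11:100780731-100859004. Foxo1 (3:52268337-52350109, plus), S1pr1 (3:115710433-115715055, minus) and Lef1 (3:131110297-131224357, plus) share chromosome 3. Klf2 lies at 8:72319062-72321654 (plus), Klf3 at 5:64803521-64832901 (plus), Foxp1 at 6:98925342-99522746 (minus) and Satb1 at 17:51736187-51833290 (minus). The values given are for the whole annotated transcript of each gene, 1816 bases for Klf2 at the shortest and 7177 bases for Foxp1 at the longest.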

How the data were processed

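RNA of splenic CD8+ T cells was sequenced in 16 groups of 3 libraries. Per the labels and the methods, single-end reads of 50 bp were aligned by the authors with TopHat 2.0.11 to mm10, who counted uniquely mapped reads over RefSeq exons. The deposited tables give, per transcript, whole read counts and RPKM. Whether replicates came from separate mice is not given in the sources used here, so p-values measure the spread between these libraries. The ChIP-seq files were not used here.

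The 9 members, the gene lists and the thresholds were chosen with earlier results of these data known. Counts of the longest transcript of each of 23992 symbols entered 1 edgeR fit (version 4.0.16, R 4.3.3) of 16 group means over 47 libraries, with TMM scaling, a quasi-likelihood test and a minimum count of 10 (filterByExpr), which left 15566 genes. A call needed an adjusted p (Benjamini-Hochberg) up to 0.05 and a factor of 2 or more. Named beside the members are Il7r, Tcf7, the 3 largest called changes of each list and the 3 genes most like each member, and a few genes that this rule or a list holds are not reported here by name. Other list genes that make up a count of 5 or fewer were named after their values were seen. The lists were 15 homing and egress partners, 24 quiescence genes, 11 genes of PI3K and AKT, 6 of division, and markers of 7 cell types, and they were given no set test. The steps were tested on simulated counts.

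Alternatives were DESeq2 1.42.0, limma 3.58.1 on log2(RPKM + 1), other scalings, filters, transcripts and thresholds, and leaving out libraries. Among comparisons with 3 pairs, same-numbered libraries deviated together (correlation over 0.1 in every pair) only in Stat5a-line WT cells, at 24 hr against 0 hr (0.206, 0.273 and 0.419) and at 48 hr against 0 hr (0.166, 0.117 and 0.192). The other comparisons missed this rule, which does not show that the replicate number is only a name. Whether a number marks the same mouse across times is not given in the labels.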

Additional observations from a re-analysis of the deposited data

Results flagged for a closer look

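A test of the difference between genotypes in the change from 0 hr (edgeR, adjusted p with the fold threshold) singled out 10 values on the log2 scale. In the Stat5a line at 48 hr these were Klf3 (1.13) and S1pr1 (1.186). In the Stat5b line they were S1pr1 (1.078) and Tob1 (1.086) at 24 hr, and Klf2 (1.985), S1pr1 (1.982), Klf3 (1.814), Lef1 (1.58), Tob1 (1.333) and Foxo1 (1.192) at 48 hr. In each case the change from 0 hr in KI cells lay above that in WT cells. Division markers were called lower in the same test at 48 hr, 4 of 6 in the Stat5a and 6 of 6 in the Stat5b line. Myeloid markers were called higher in 3 of 8 and 7 of 8 cases, and B cell markers in 0 of 8 and 7 of 8. At 24 hr in the Stat5b line 6 of 6 division markers were called lower and 3 of 8 myeloid markers higher. The part of these markers in the 10 values was not tested.

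A test of the KI minus WT difference between the lines singled out 3 values by adjusted p, all larger in the Stat5b line. They were Foxo1 at 24 hr (0.3087), Foxo1 at 48 hr (0.2657) and S1pr1 at 48 hr (0.5963). In the same test at 48 hr, 2 of 8 B cell, 2 of 8 myeloid, 4 of 6 erythroid and 2 of 3 CD4 T cell markers were higher in the Stat5b line by adjusted p. The share of all genes was 3.20%. Lower by adjusted p were 3 of 6 division and 2 of 9 memory-phenotype markers. At 24 hr 6 of 6 erythroid and 3 of 8 myeloid markers were higher (against 2.76% of all genes), and 4 of 6 division and 2 of 9 memory-phenotype markers lower. The part of these markers in the 3 values was not tested.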

How the results depend on the processing

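The fall of 6 members in WT cells of each line by 48 hr, and the 6 with a higher response in Stat5b KI cells, stayed within 1.5 times their number under every alternative tried. By adjusted p alone, members lower at 48 hr in KI cells numbered 7 in the Stat5a line (3 with the fold threshold) and 5 in the Stat5b line (2), members higher in KI than in WT cells at 48 hr 8 (1) and 9 (4), members with a higher 48 hr response in Stat5a KI cells 7 (2), and members with a larger difference in the Stat5b line 2 (0). Within KI cells at 48 hr, 9704 of 15566 genes in the Stat5a and 8036 in the Stat5b line passed in either direction. Upper-quartile scaling gave 2 members called higher in Stat5a KI cells at 48 hr and 7 for Stat5b KI. It moved the median of all genes from 0.10 to 0.31 in the latter comparison and from -0.13 to -0.33 in WT cells of that line at 48 hr against 0 hr, and the genes called higher and lower in Stat5b KI cells from 2564 and 1527 to 3243 and 979. Leaving out single libraries gave 0 to 2 members called higher in Stat5a KI cells at 48 hr, with 0 without WT or KI replicate 2 and 2 without WT replicate 1, and 3 to 4 in Stat5b KI cells. Over 85 gene results, leaving out libraries kept the side of the adjusted p threshold in 733 of 768 values, and other alternatives in 735 of 765. The fold threshold was not part of this count, so that a value that lost its call by fold alone counts as kept. No value that passed the adjusted p in the main fit or in the alternative turned the direction. Satb1 at 48 hr and the differences between the lines lost the adjusted p most readily, Satb1 to 0.544 in the Stat5a line and Foxo1 to 0.763 with all 48 libraries, and Foxo1 and S1pr1 to 0.145 and 0.126 under limma.

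With the replicate number as a block 0 of 270 calls changed, and the KI minus WT difference of Klf2 at 48 hr in the Stat5a line was 1.07. Most comparisons missed the rule for pairs, which does not show that same-numbered libraries of different times are independent. In Stat5b KI samples the erythroid marker Hbb-bs was highest in replicate 1 and lowest in replicate 2 at every time. In Stat5b-line WT samples it rose from replicate 1 to replicate 3 at every time. In WT and KI samples of the Stat5a line its order at 48 hr differed from that at 0 hr. Depth limits chiefly replicate 2 of the Stat5a-line WT group at 4 hr, with 17369112 reads.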

Other observations

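In the library left out, replicate 3 of the Stat5a KI group at 4 hr, 1028515 reads lay on the longest transcripts, 5.675% of its mapped reads. The members' counts there ranged from 41 for Foxo1 and Tob1 to 393 for Foxp1, with 57 for Ccr7, 94 for S1pr1 and 185 for Klf2.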
